A study of Homo sapiens with 23 samples.

Results

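The 50 genes described here act from the G2 to M transition to the end of cell division. They are the cyclins and kinases that start mitosis, the spindle checkpoint, the outer kinetochore, mitotic kinesins, cytokinesis factors and the transcription factor FOXM1. They were picked by gene symbol from the 61217 genes listed in each of 6 tables, and every symbol was found. Their expression was measured by sequencing polyA RNA from 23 samples of the cervical carcinoma lines C-33A, HPV-negative per the labels, and CaSki, HPV-positive and from a metastasis. In each line, cells given 100 nM of the miR-23b-3p, the miR-124-3p or the miR-218-5p mimic are set against cells given 100 nM of a negative control. Groups hold 3 samples, except C-33A with miR-124-3p, which holds 2. A mimic is a synthetic RNA that raises the level of a mature microRNA in the cell. Each HPV status is represented by 1 line, so status and line cannot be told apart. The comparisons ask which transcripts differ after each mimic.

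Entry into mitosis depends on CDK1 bound to cyclin B, which CDC25 phosphatases switch on and which PLK1 and AURKA reinforce. The spindle checkpoint, built on BUB1, MAD2L1 and TTK, holds back the ubiquitin ligase APC/C until every kinetochore has gripped microtubules. CDC20 then turns APC/C against securin and cyclin B, ESPL1 cuts cohesin, and the central spindle directs the cleavage furrow. Transcripts of these genes build up late in the cell cycle, under the DREAM and MuvB complexes, MYBL2 and FOXM1. In bulk RNA a lower level of such transcripts can stem from fewer cells in G2 and mitosis or from less RNA per cell, and these cannot be told apart.

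A microRNA guides Argonaute to messenger RNAs mainly through its seed, positions 2 to 8, pairing with the 3' UTR. The mature sequences of RefSeq (GRCh38.p14) are shown for the mimics of miR-23b-3p and miR-218-5p, with the seed in capitals, because the members' matches to them are described further on.
hsa-miR-23b-3p: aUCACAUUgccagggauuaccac
hsa-miR-218-5p: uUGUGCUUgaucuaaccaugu
The seeds differ, so these microRNAs do not share a match. MIR23B lies at chr9:95085265-95085287 on the plus strand, and miR-218-5p is made from MIR218-1 at chr4:20528299-20528319 on the plus strand and MIR218-2 at chr5:168768211-168768231 on the minus strand.

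Taking each gene's longest coding transcript in GENCODE 29 (GRCh38), 5 members hold in their 3' UTR a 7mer or 8mer match to miR-218-5p. An 8mer pairs with positions 2 to 8 and has an A after the match, a 7mer-m8 lacks that A, and a 7mer-A1 lacks position 8. The matches of the 3 members whose fold changes with miR-218-5p were below 0 in both lines are shown in the sense of the transcript, with the match in capitals.
ANLN: gaagagttaatAAGCACAtggtttacatt
CCNA2: ttattattttaAAGCACAttaaaaacaaa
SPC24: agccagatatcAGCACAAacttatttaaa
They lie in 3' UTR exons at chr7:36453215-36453243 on the plus strand for the actin-binding furrow protein ANLN, at chr4:121816980-121817008 on the minus strand for cyclin A2 (CCNA2) and at chr19:11145604-11145632 on the minus strand for the kinetochore subunit SPC24. CCNB2 holds a 7mer-A1 match, and the checkpoint protein MAD2L1 holds an 8mer and a 7mer-A1. Matches to miR-23b-3p stand in 11 members, which are BUB3, CCNB2, GTSE1, HMMR, KIF11, KIF20B, MAD2L1, PLK1, PRC1, RACGAP1 and TOP2A. Those of HMMR and PLK1 are shown because these are the members with a match that were called with this mimic, and that of KIF11 as an 8mer.
HMMR: aatccttaaatATGTGAAaggaacatttt
PLK1: acattaaacagATGTGAAtattc
KIF11: ttgttgccccaAATGTGAAagcatttcatt
These windows lie at chr5:163491275-163491303 for HMMR, chr16:23690345-23690367 for PLK1 and chr10:92654727-92654756 for KIF11, all in 3' UTR exons on the plus strand. Of the 49 members measured in CaSki, 22.4% hold a miR-23b-3p match, against 30.2% of all measured genes with a 3' UTR. For miR-218-5p the shares are 10.2% of members and 21.6% of all genes. These shares take no account of 3' UTR length, which among members runs from 58 nt for PTTG1 to 6632 nt for BUB3.

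Promoter sequence was not used to choose the members, and was searched for motifs known from late cell cycle genes. RefSeq promoters were matched for 43 of the 50. The 250 bases before the start were searched on either strand. There TTTGAA, the cell cycle genes homology region bound by MuvB, occurs in 55.81% of these members and in 13.57% of all 27305 promoters. CCAAT, the box bound by NF-Y, occurs in 81.4% of members and 33.04% of all promoters. Within the last 100 bases before the start the shares are 39.53% against 4.64% for TTTGAA and 74.42% against 18.7% for CCAAT. The last 100 bases are shown for the kinesin KIF23, whose fold changes follow the members' median most closely, for cyclin B2 and for PLK1, with TTTGAA and the CCAAT box in capitals, the box also as its reverse complement ATTGG.
KIF23: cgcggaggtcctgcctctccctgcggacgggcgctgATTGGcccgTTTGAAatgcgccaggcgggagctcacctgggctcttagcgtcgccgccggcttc
CCNB2: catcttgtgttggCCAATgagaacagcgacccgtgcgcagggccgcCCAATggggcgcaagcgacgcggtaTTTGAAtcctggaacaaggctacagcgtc
PLK1: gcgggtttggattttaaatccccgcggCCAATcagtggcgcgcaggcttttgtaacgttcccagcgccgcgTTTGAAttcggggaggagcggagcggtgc
These stretches lie at chr15:69414249-69414348, chr15:59105046-59105145 and chr16:23678789-23678888, all on the plus strand of GRCh38.p14. In each of them a CCAAT box stands upstream of TTTGAA. A match is a string of letters in this window and no evidence of binding.

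What was deposited and used here is the authors' own fit of each comparison, so values per sample and the depth of each library are unknown. A gene counts as measured when its average log2 CPM was at least 1, and as risen or fallen at a deposited false discovery rate (FDR) under 0.05. Nothing in the labels says that the samples were separate cultures, so p-values may reflect technical spread alone. As a check of the lines, 6 of 6 epithelial markers were measured in CaSki at average log2 CPM of 5.81 to 12.07. In C-33A the same 6 markers lay between -3.26 and 0.78, and none reached 1. COL1A2 among 4 fibroblast markers (2.95) and PTPRC among 3 leukocyte markers (2.55) were measured in C-33A, and COL1A1 (1.79) in CaSki, while 0 of 3 endothelial markers reached 1 in either line. Their part in the results was not tested.

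Of the 50 members, 48 were measured in all comparisons. By log2 CPM per kb of transcript, the CDK1 partner CKS2 (8.39), cyclin B1 (7.55), the ubiquitin-conjugating enzyme UBE2C (7.54) and topoisomerase TOP2A (7.30) had the highest levels in C-33A, averaged over its tables. The citron kinase CIT, at 2.18, had the lowest level in C-33A after NUSAP1, SPC25 and PRC1. CaSki gave 7.80 for CKS2, 7.06 for cyclin B1, 7.66 for UBE2C, 7.48 for TOP2A and 2.91 for CIT on the same scale. The tables of the lines were normalised separately, and set side by side 44 members lay within 1 log2 CPM of each other. The C-33A minus CaSki difference in level was lowest for ANLN (-1.73) and highest for MAD2L1 (1.22) among the 48.

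The remaining members, NUSAP1 and SPC25, were at or near the floor in at least 1 line, which limits them. Some measured members are limited by a low level or by exon bases shared with other genes. NUSAP1, a microtubule bundler, had an average log2 CPM between -3.61 and -3.02 in the authors' deposited tables, and its fold changes are not read here. In GENCODE 29, 62.16% of its exon bases are shared with another annotated gene, ENSG00000285920. PRC1, which crosslinks the central spindle, stood between 1.79 and 2.62 in the authors' deposited tables and shares 58.39% of its exon bases with ENSG00000284946 and PRC1-AS1. The counting of reads in shared bases is not described in the sources at hand, which leaves the levels of NUSAP1 and PRC1 uncertain. The same limit holds in part for SGO1 (17.74% shared, with SGO1-AS1), FOXM1 (15.94%, with ITFG2) and PLK1 (12.5%, with ENSG00000261266 and ERN2). SPC25, a kinetochore subunit, lay between -2.85 and -2.70 in C-33A and between 2.22 and 2.48 in CaSki in the authors' deposited tables. Its CaSki fold changes of -3.79 with miR-124-3p, -4.08 with miR-23b-3p and -3.81 with miR-218-5p had p-values of 0.126, 0.113 and 0.122 in the authors' deposited tables and were not called. These 3 values share the same control libraries, and the degrees of freedom recovered for them were 4.16, 3.15 and 4.16.

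In 5 of the 6 comparisons no member was called. C-33A had 0 of 50 called in each comparison, where the authors' edgeR fits called 0.754% of measured genes with miR-124-3p, 0.225% with miR-23b-3p and 0.357% with miR-218-5p. CaSki had 0 of 50 with miR-124-3p and with miR-218-5p, where 1.4% and 0.115% of measured genes were called. In CaSki with miR-23b-3p, 5 members rose and 4 fell, all among the 49 measured there, where 10.4% of measured genes were called (5.89% risen, 4.47% fallen).

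An unadjusted p under 0.05 was more common. In C-33A with miR-124-3p it was reached by 4 members that were higher (4.65% of all measured genes) and 2 that were lower (6.29%). With miR-23b-3p in C-33A 6 were higher (2.19% of genes) and 0 lower (2.49%), and with miR-218-5p 0 were higher (1.4% of genes) and 10 lower (4.02%). Of the 49 measured CaSki members, 3 were higher (8.31% of genes) and 4 lower (7.96%) with miR-124-3p. With miR-23b-3p in CaSki 8 were higher (16.4% of genes) and 7 lower (15.3%), and with miR-218-5p 3 were higher (4.83%) and 2 lower (2.71%).

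**Figure D1:**
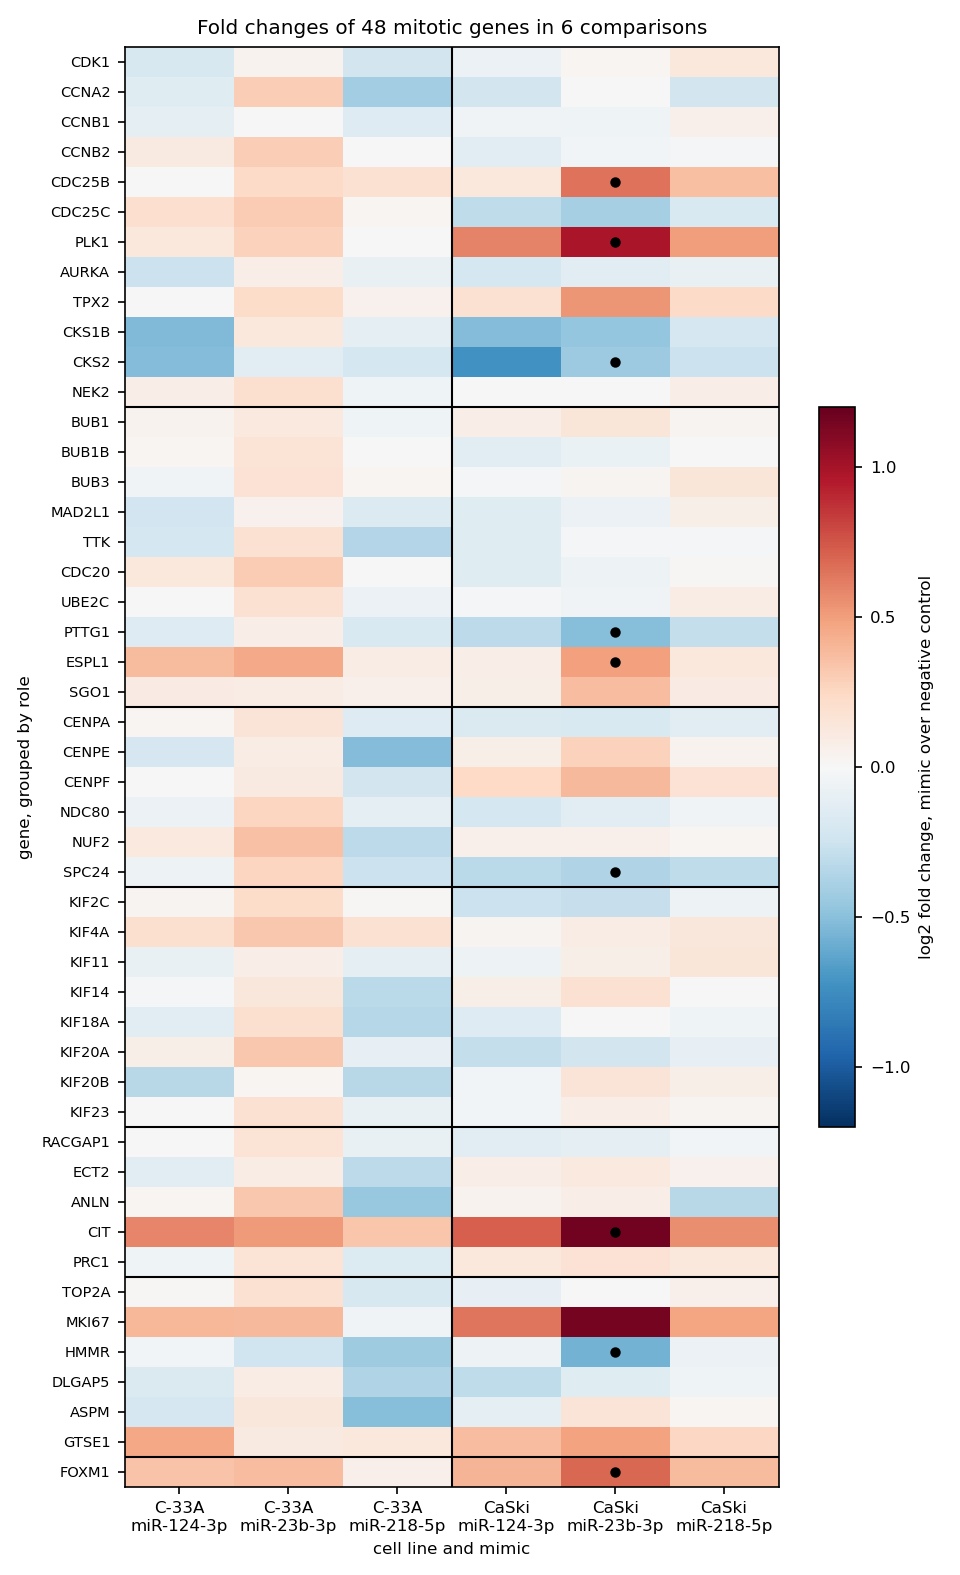
Log2 fold changes (colour, mimic over negative control) of the 48 members measured in all 6 comparisons, from the authors' deposited tables, with genes in rows grouped by role and comparisons in columns. Black dots mark the 9 called values, all in CaSki with miR-23b-3p, where CIT (1.15) and MKI67 (1.15) are the highest and HMMR (-0.56) is the lowest. NUSAP1 and SPC25 are not drawn.

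The members' medians differed between comparisons. In C-33A with miR-23b-3p the median log2 fold change of the 48 measured members was 0.17, against 0.02 for all measured genes, and 46 of 48 lay above 0 (95.8%, against 53.9% of all). With miR-218-5p in C-33A the median was -0.11, against -0.04 for all genes, and 14 of 48 lay above 0 (29.2%, against 40.1%). With miR-124-3p in C-33A the members split evenly, 24 above and 24 below 0. In CaSki the medians were -0.06 with miR-124-3p, 0.01 with miR-23b-3p and 0.04 with miR-218-5p, with 18, 27 and 30 of 49 members above 0. All genes had medians of -0.02, -0.01 and 0.01 there. The 3 mimics of a line share their control libraries, so their medians do not vary independently, and members of a set are not replicates.

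**Figure D2:**
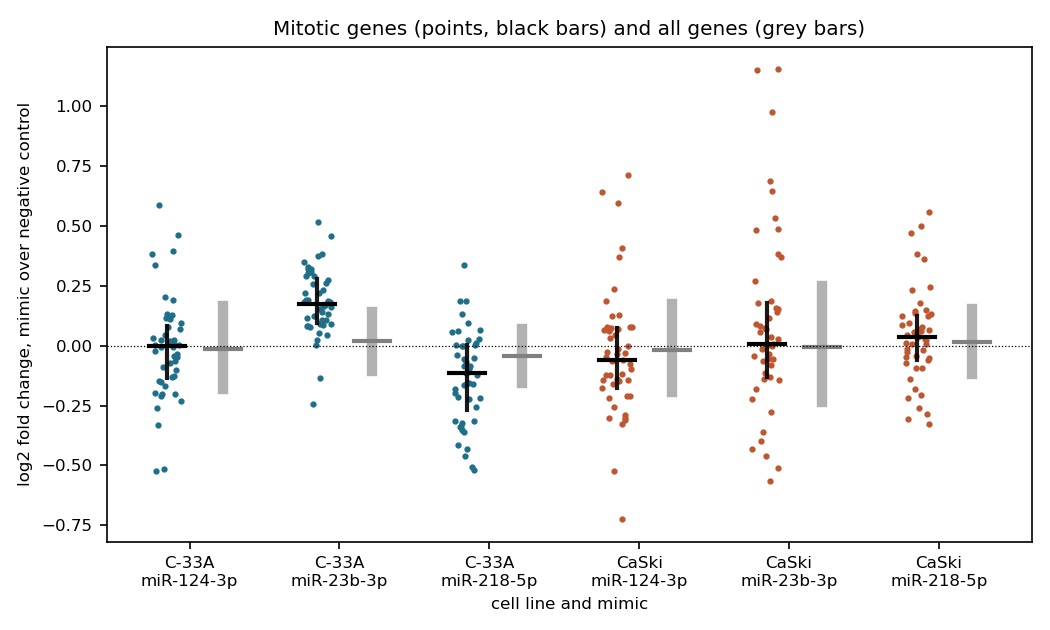
Log2 fold changes of the measured members (points) in each comparison, with their median and quartiles (black) beside the median and quartiles of all measured genes (grey). The C-33A miR-23b-3p points lie above 0 for 46 of 48 members, and CaSki with miR-23b-3p has the widest spread, up to 1.15. SPC25 in CaSki, near -4, is counted in the quartiles and not drawn.

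The entry kinases and their switches held 3 of the 9 calls of CaSki with miR-23b-3p. In the authors' deposited table PLK1, the polo kinase that drives entry, spindle assembly and cytokinesis, rose by 0.98 on the log2 scale (adjusted p = 0.00846, SE 0.25, 1.97-fold). CDC25B, the phosphatase that starts CDK1 activation at the centrosome, rose by 0.65 in the authors' deposited table (adjusted p = 0.000865, SE 0.141, 1.57-fold). CKS2, the small subunit that docks CDK1 on its substrates, fell by 0.43 in the authors' deposited table (adjusted p = 0.0108, SE 0.114). Its paralog CKS1B stood at -0.46 with an SE of 0.381 and was not called in the authors' deposited table. Values of the core engine lay near 0, with CDK1 at 0.03, CCNB1 at -0.05, CCNB2 at -0.03, CCNA2 at 0.00 and the centrosomal kinase NEK2 at 0.00 in the authors' deposited table. CDC25C, the phosphatase that acts after CDC25B, had -0.40 (p = 0.00898, adjusted p = 0.186) in the authors' deposited table, the opposite sign to CDC25B. AURKA was at -0.13 and its activator TPX2 at 0.53 (adjusted p = 0.586, SE 0.29) in the authors' deposited table.

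At anaphase, securin and separase moved in opposite directions with miR-23b-3p in CaSki. Separase (ESPL1), the protease that cuts cohesin, rose by 0.49 in the authors' deposited table (adjusted p = 0.0326, SE 0.143). Securin (PTTG1), which holds separase inactive until it is degraded, fell by 0.51 in the authors' deposited table (adjusted p = 0.00272, SE 0.12). Shugoshin SGO1, the protector of centromeric cohesin, had 0.37 (p = 0.018, adjusted p = 0.285) in the authors' deposited table. The checkpoint kinases and their partners lay close to 0, with BUB1 at 0.14, BUB1B at -0.08, BUB3 at 0.04, MAD2L1 at -0.07, TTK at -0.01, CDC20 at -0.06 and UBE2C at -0.04 in the authors' deposited table. None of these 7 was called. Neither ESPL1 (0.33, adjusted p = 0.238) nor PTTG1 (-0.38, adjusted p = 0.0532) passed once a trend fitted on both transcript length and GC content was subtracted.

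Among kinetochore proteins, SPC24 fell by 0.36 in the authors' deposited table (adjusted p = 0.0489, SE 0.111). Its NDC80 complex partners NDC80 (-0.14) and NUF2 (0.06) were not called in the authors' deposited table, nor were the centromeric histone CENPA (-0.18), the kinesin CENPE (0.27, SE 0.464) and the large coiled-coil protein CENPF (0.38, SE 0.202). None of the 8 kinesins was called in the authors' deposited table, and they ranged from -0.28 for KIF2C, which takes microtubule ends apart, to 0.19 for KIF14, a kinesin of the midbody. KIF2C (p = 0.00946) and the cytokinesis kinesin KIF20A (-0.22, p = 0.0366) had adjusted p of 0.192 and 0.427 in the authors' deposited table. The spindle motor KIF11 stood at 0.07, KIF23 at 0.08, the chromokinesin KIF4A at 0.09, KIF18A at 0.01 and KIF20B at 0.16 in the authors' deposited table.

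Cytokinesis held the strongest call. CIT, the citron kinase that organises the midbody, rose by 1.15 in the authors' deposited table (adjusted p = 1.12e-07, SE 0.166, 2.22-fold). The other cytokinesis members lay near 0 in the authors' deposited table, with ANLN at 0.08, ECT2 at 0.12, RACGAP1 at -0.12 and PRC1 at 0.18. HMMR, a spindle pole protein, fell by 0.56 in the authors' deposited table (adjusted p = 0.0326, SE 0.165), the lowest value in that comparison among the 48 members measured in all 6. FOXM1 rose by 0.69 in the authors' deposited table (adjusted p = 0.0114, SE 0.181, 1.61-fold). MKI67, which coats mitotic chromosomes, had a fold change as large as that of CIT, 1.15, but an SE of 0.413, and was not called (p = 0.00528, adjusted p = 0.133) in the authors' deposited table. The degrees of freedom recovered for MKI67 were 4.46, against a median of 38.18 over genes in that comparison. Its SE is recovered from the p-value and so takes in these few degrees of freedom, while the F statistic of the authors' deposited table gives an SE of 0.227. GTSE1, which restrains p53 in G2, had 0.49 (p = 0.00794, adjusted p = 0.172), the spindle pole organiser ASPM 0.15, TOP2A 0.01 and the microtubule protein DLGAP5 -0.14 in the authors' deposited table. The CaSki comparisons share their control libraries, and every called member had the same sign with miR-124-3p and miR-218-5p. With these mimics CIT stood at 0.71 and 0.56, PLK1 at 0.60 and 0.50 and FOXM1 at 0.41 and 0.38. ESPL1 stood at 0.08 and 0.13 and HMMR at -0.06 and -0.07. No member passed in the tests between mimics given further on.

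**Figure D3:**
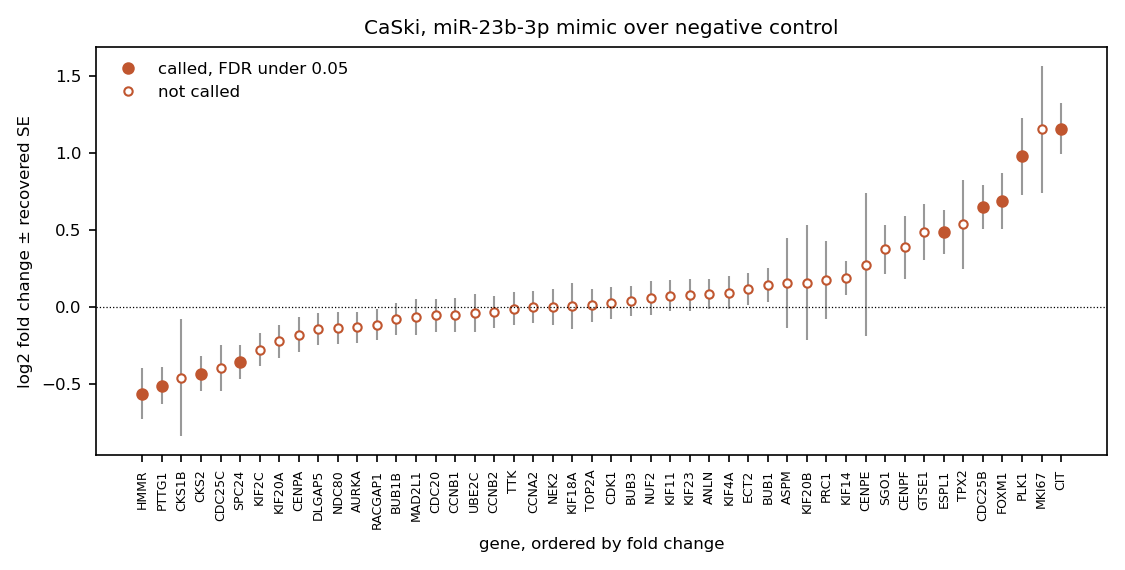
Log2 fold changes in CaSki with the miR-23b-3p mimic over negative control, from the authors' deposited table, with SEs recovered from the p-values, in order of size. Filled points are the 9 called members, and MKI67 (open, 1.15) has a wider SE (0.413) than CIT (0.166). SPC25 (-4.08) and NUSAP1 are not drawn.

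Given miR-23b-3p, C-33A showed small values of the same sign in nearly every member. HMMR (-0.24, p = 0.164) and CKS2 (-0.13, p = 0.422) were the exceptions below 0 among the 48 measured members in the authors' deposited table. All 10 spindle checkpoint and anaphase members, all 8 kinesins, all 5 cytokinesis members and all 6 measured kinetochore members lay above 0. Medians by role were 0.21 for the cyclin-CDK engine and entry kinases, 0.17 for the checkpoint and anaphase, 0.21 for the kinetochore, 0.18 for kinesins, 0.17 for cytokinesis and 0.12 for spindle and chromosome proteins. For scale, the median SE of a member there was 0.166, and no member was called. In the authors' deposited table the lowest p-values belonged to CIT (0.51, SE 0.181, p = 0.00438), ESPL1 (0.46, SE 0.173, p = 0.00809), MKI67 (0.38, SE 0.166, p = 0.0201) and FOXM1 (0.37, SE 0.173, p = 0.0313). Each had an adjusted p of 1. NUF2 (0.35, p = 0.0403) and KIF4A (0.33, p = 0.0499) were the other members under 0.05 before adjustment in the authors' deposited table.

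With miR-218-5p in C-33A no member was called, and CENPE and ASPM had the lowest values. The 4 lowest p-values in the authors' deposited table belonged to CENPE (-0.52, SE 0.162, p = 0.00135, adjusted p = 0.576), ASPM (-0.51, SE 0.163, p = 0.0019, adjusted p = 0.695), ANLN (-0.46, SE 0.162, p = 0.00456, adjusted p = 1) and HMMR (-0.43, SE 0.167, p = 0.00993, adjusted p = 1). The other 6 members lower at an unadjusted p under 0.05 in the authors' deposited table were CCNA2 (-0.41), DLGAP5 (-0.36), TTK (-0.35), KIF20B (-0.34), KIF18A (-0.34) and KIF14 (-0.32). None of the 6 measured kinetochore members lay above 0, and their median was -0.24. With the length and GC trend subtracted, CENPE stood at -0.33, HMMR at -0.23, DLGAP5 at -0.20, KIF20B at -0.11, KIF18A at -0.15 and KIF14 at -0.20. After the same subtraction ASPM stood at -0.38, ANLN at -0.365, CCNA2 at -0.34 and TTK at -0.26. On the higher side the lowest p-values of measured members in the authors' deposited table were those of CIT (0.34, p = 0.0508), KIF4A (0.19, p = 0.253), CDC25B (0.19, p = 0.288) and GTSE1 (0.13, p = 0.468).

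CaSki with miR-218-5p had ANLN at -0.33 (SE 0.133, p = 0.0133, adjusted p = 1) in the authors' deposited table, the lowest p-value on the lower side. SPC24 (-0.31, p = 0.0494), CCNA2 (-0.22, p = 0.0796) and PTTG1 (-0.28, p = 0.0878) came next in the authors' deposited table. The higher side was led by CDC25B (0.36, SE 0.139, p = 0.00863), CIT (0.56, SE 0.219, p = 0.0108), FOXM1 (0.38, SE 0.151, p = 0.0111) and PLK1 (0.50, SE 0.293, p = 0.0877) in the authors' deposited table, each with an adjusted p of 1. CENPE and ASPM, the lowest members in C-33A, stood at 0.05 and 0.03 in CaSki in the authors' deposited table.

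With miR-124-3p, CKS2 had the lowest p-value on the lower side and CIT on the higher side in both lines, and neither was called. In C-33A the authors' deposited table gave CKS2 -0.52 (SE 0.17, p = 0.00246, adjusted p = 0.518) and CKS1B -0.53 (SE 0.183, p = 0.0042, adjusted p = 0.687). KIF20B (-0.33, p = 0.0595) and AURKA (-0.26, p = 0.125) followed on the lower side of the authors' deposited table. CIT led the higher side with 0.59 (SE 0.187, p = 0.00166, adjusted p = 0.417), before MKI67 (0.39, p = 0.0165), GTSE1 (0.46, p = 0.0204) and ESPL1 (0.38, p = 0.0321) in the authors' deposited table. Subtracting the length and GC trend brought CKS2 to -0.25 and ESPL1 to 0.16 in C-33A. It left CKS1B at -0.35, KIF20B at -0.24, AURKA at -0.18, CIT at 0.42, MKI67 at 0.26 and GTSE1 at 0.39 there. CaSki gave CKS2 -0.72 (SE 0.212, p = 0.000647, adjusted p = 0.135), DLGAP5 -0.30 (p = 0.0253), KIF20A -0.29 (p = 0.0424) and SPC24 -0.33 (p = 0.0429) in the authors' deposited table. NUSAP1 (-3.93) was also under 0.05 in that authors' deposited table, at a level too low to read. On the higher side CaSki had CIT at 0.71 (SE 0.221, p = 0.00123, adjusted p = 0.195), FOXM1 at 0.41 (SE 0.152, p = 0.00723, adjusted p = 0.512), GTSE1 at 0.37 (p = 0.0489) and PLK1 at 0.60 (p = 0.0543) in the authors' deposited table. CIT and CKS2 passed there when the adjustment ran over measured genes alone, with an adjusted p of 0.0436 for CIT and 0.0297 for CKS2. With the length and GC trend subtracted, and the adjustment not limited to measured genes, neither passed in CaSki. CIT then stood at 0.54 (adjusted p = 0.507) and CKS2 at -0.64 (adjusted p = 0.209).

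Whether the lines differed was tested on the difference of their log2 fold changes, with Benjamini-Hochberg adjustment over all genes measured in both. None of the 48 members passed for any mimic. For miR-23b-3p, 2.13% of the 11085 genes passed, and 8 members had an unadjusted p under 0.05, a level reached by 16.8% of genes. Of these 8, SPC24 had C-33A 0.26 and CaSki -0.36 (difference 0.62, SE 0.202, adjusted p = 0.0707), and CDC25C had C-33A 0.31 and CaSki -0.40 (difference 0.70, adjusted p = 0.0774). PTTG1 (0.59, adjusted p = 0.0856), KIF20A (0.54, adjusted p = 0.107), KIF2C (0.50, adjusted p = 0.146) and NDC80 (0.40, adjusted p = 0.279) also had higher fold changes in C-33A. CIT (-0.64, adjusted p = 0.13) and PLK1 (-0.70, adjusted p = 0.2) had lower ones. For miR-124-3p 1 member, CDC25C (0.51), and for miR-218-5p 1 member, ASPM (-0.54), had an unadjusted p under 0.05, and 0 of 11123 and 0 of 11082 genes passed. The 48 members' fold changes in the lines had Spearman correlations of 0.503 for miR-124-3p, 0.269 for miR-23b-3p and 0.506 for miR-218-5p, and Pearson correlations of 0.718, 0.494 and 0.537. The lines share no library, but each point has the same transcript length and base composition in both.

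Mimics of a line were set against each other by the difference of their fold changes, in which the control libraries cancel, with an SE that is too large rather than too small. No member passed in any of these 6 tests, where 0.477% (miR-23b-3p minus miR-124-3p), 0.0627% (miR-23b-3p minus miR-218-5p) and 0.195% (miR-124-3p minus miR-218-5p) of genes did in C-33A. The shares in CaSki were 0.668%, 0.123% and 0.569% in the same order. In C-33A, miR-23b-3p minus miR-218-5p was above 0 for 47 of 48 members, with a median of 0.28 against 0.06 for all genes. ANLN had the lowest p-value there, with 0.32 under miR-23b-3p and -0.46 under miR-218-5p in the authors' deposited tables (difference 0.78, SE 0.232, adjusted p = 0.3). CCNA2 (0.70), NUF2 (0.66), ASPM (0.65), CENPE (0.61), TTK (0.53), KIF18A (0.53) and SPC24 (0.51) also had an unadjusted p under 0.05 in that test, and 2.53% of genes did. For C-33A miR-23b-3p minus miR-124-3p, 43 of 48 members lay above 0, with a median of 0.19 against 0.02 for all genes. For C-33A miR-124-3p minus miR-218-5p, 41 of 48 did, with a median of 0.13 against 0.03. In CaSki, miR-23b-3p minus miR-124-3p was above 0 for 39 of 49 members, with a median of 0.09 against 0.01 for all genes. The CaSki difference miR-23b-3p minus miR-218-5p had 23 of 49 members above 0 and a median of -0.04, and miR-124-3p minus miR-218-5p had 15 of 49 and -0.10 against -0.03 for all genes.

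Members with a 3' UTR match were then set beside those without. With miR-218-5p, the 5 members with a match had a median of -0.26 in C-33A, against -0.10 for the 43 without, and -0.22 in CaSki, against 0.04 for the 44 without. In all genes the medians were -0.10 with and -0.03 without a match in C-33A, and 0.00 with and 0.02 without in CaSki. ANLN, CCNA2 and SPC24 had the 3 lowest values of the 5 in both lines. The matches of these members were the ones shown, because their fold changes lay below 0 in both lines. MAD2L1, the member with an 8mer, stood at -0.17 in C-33A and 0.07 in CaSki, and CCNB2 at 0.00 and -0.02, in the authors' deposited tables. HMMR, which holds no match to miR-218-5p, stood at -0.43 in C-33A and -0.07 in CaSki with that mimic. ANLN, CCNA2 and SPC24 hold no match to miR-23b-3p. With that mimic they stood at 0.32, 0.29 and 0.26 in C-33A and at 0.08, -0.002 and -0.36 in CaSki. Matches to miR-124-3p were not searched. With miR-124-3p the same members stood at 0.02, -0.15 and -0.06 in C-33A and at 0.05, -0.22 and -0.33 in CaSki. In CaSki CCNA2 and SPC24 thus had values with miR-124-3p close to those with miR-218-5p (-0.22 and -0.31), and ANLN did not (-0.33 with miR-218-5p). With miR-23b-3p the 11 members with a match had medians of 0.16 in C-33A and 0.04 in CaSki, against 0.19 and 0.00 for those without. In all genes, those with a match had a median of -0.06 and those without had 0.06 in C-33A, while CaSki had 0.06 with and -0.05 without. After subtraction of the length and GC trend, the CaSki medians were -0.06 with and 0.00 without a match among members, and -0.06 and -0.02 among all genes. HMMR was the member with a match that lay below 0 in C-33A (-0.24 in the authors' deposited table) and fell in CaSki. PLK1, with a 7mer-A1, rose in CaSki. The 8mer members KIF11 (0.08 in C-33A, 0.07 in CaSki), KIF20B (0.03, 0.16), RACGAP1 (0.16, -0.12) and GTSE1 (0.11, 0.49) were not called in the authors' deposited tables. The remaining 5, BUB3, CCNB2, MAD2L1, PRC1 and TOP2A, lay between 0.05 and 0.29 in C-33A and between -0.07 and 0.18 in CaSki in the authors' deposited tables.

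**Figure D4:**
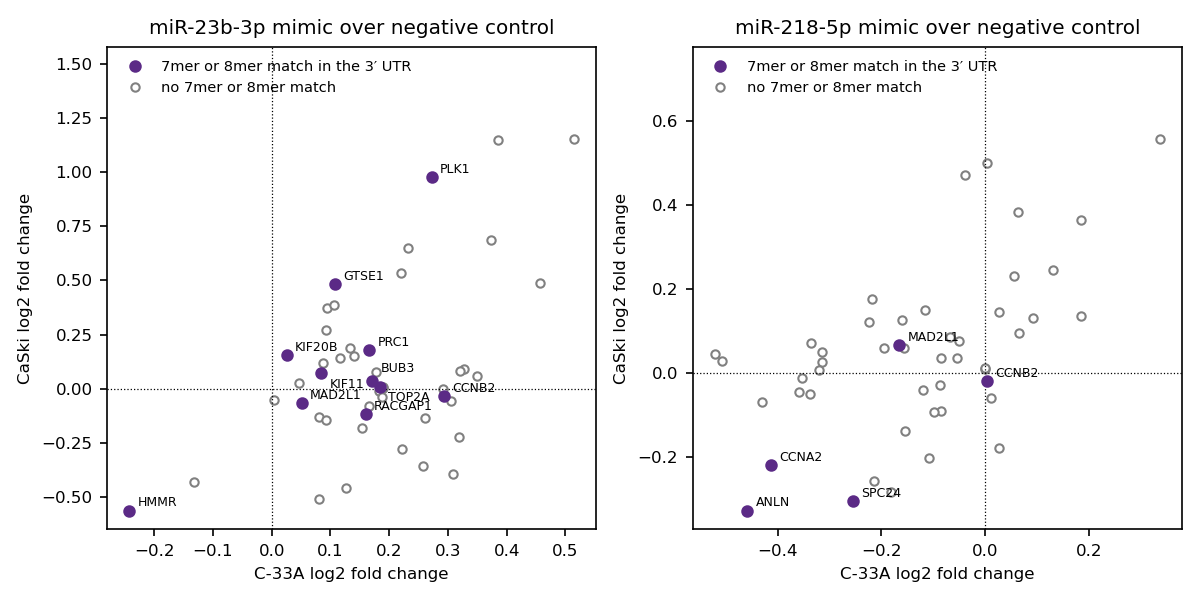
CaSki against C-33A log2 fold changes of the 48 members measured in both lines, with miR-23b-3p (left) and miR-218-5p (right), from the authors' deposited tables. Filled, named points hold a 7mer or 8mer match to the mimic in the 3' UTR. On the right ANLN, CCNA2 and SPC24 lie low in both lines, and on the left HMMR does, while PLK1 (0.98 in CaSki) lies high. Without a match, SPC24 stood at -0.36 in CaSki with miR-23b-3p and HMMR at -0.43 in C-33A with miR-218-5p.

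Transcript length and base composition moved with the fold changes across members, in a different way in each line. The members' transcripts have a median length of 3215 nt and 42.55% GC, against 3246 nt and 47.92% for measured genes. In CaSki the Spearman correlation of the fold change with length over 49 members was 0.546 with miR-124-3p, 0.636 with miR-23b-3p and 0.484 with miR-218-5p, against 0.301, 0.376 and 0.241 over all measured genes. In C-33A it lay between -0.07 and 0.081, against 0.246, -0.038 and 0.116 over all genes in the same order of mimics. The correlation with GC content over 48 members in C-33A was 0.548, 0.514 and 0.723, against 0.324, 0.46 and 0.244 over all genes. In CaSki the correlation with GC content was 0.134, 0.093 and 0.189 over members, and -0.1, -0.234 and -0.122 over all genes. Genes are not independent replicates, and the mimics of a line share their controls, so these are descriptions. With miR-23b-3p in CaSki, the 5 longest transcripts, MKI67, ASPM, CENPF, CIT and CENPE (8612 to 12678 nt), had 1.15, 0.15, 0.38, 1.15 and 0.27 in the authors' deposited table. The 5 shortest, CKS2, CKS1B, UBE2C, PTTG1 and SPC25 (613 to 1354 nt), had -0.43, -0.46, -0.04, -0.51 and -4.08 in the authors' deposited table. PLK1, at 2227 nt, and HMMR, at 3102 nt, are of ordinary length. Of the 14 members over 48% GC, 7 were called in CaSki with miR-23b-3p, and 749 of all 6395 such genes were. In C-33A with miR-218-5p, 0 of 13 members under 40% GC lay above 0 (median -0.32, against -0.16 for all such genes), and 8 of 14 over 48% GC did (median 0.00, against -0.01).

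After subtraction of a trend on length and GC fitted over all genes, CIT (0.89), PLK1 (1.12), FOXM1 (0.69), CDC25B (0.69) and HMMR (-0.55) still passed in CaSki with miR-23b-3p. PTTG1 (-0.38, adjusted p = 0.0532), CKS2 (-0.29, adjusted p = 0.152), SPC24 (-0.27, adjusted p = 0.199) and ESPL1 (0.33, adjusted p = 0.238) did not. In C-33A with miR-23b-3p the members' median was 0.19 with the trend subtracted, against 0.00 for all genes, and 46 of 48 stayed above 0. In C-33A with miR-218-5p it was -0.06, with 18 of 48 above 0, and with miR-124-3p it was 0.04, with 30 of 48 above 0. The shares above 0 in C-33A were 95.8% with miR-23b-3p, 37.5% with miR-218-5p and 62.5% with miR-124-3p. Those of all genes were 50.9%, 49.9% and 49.4%. In CaSki the medians after subtraction were -0.05 with miR-124-3p (18 of 49 above 0), -0.02 with miR-23b-3p (23 of 49) and 0.00 with miR-218-5p (23 of 49). These are 36.7%, 46.9% and 46.9% of members, against 48.4%, 47.7% and 48.8% of all genes.

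**Figure D5:**
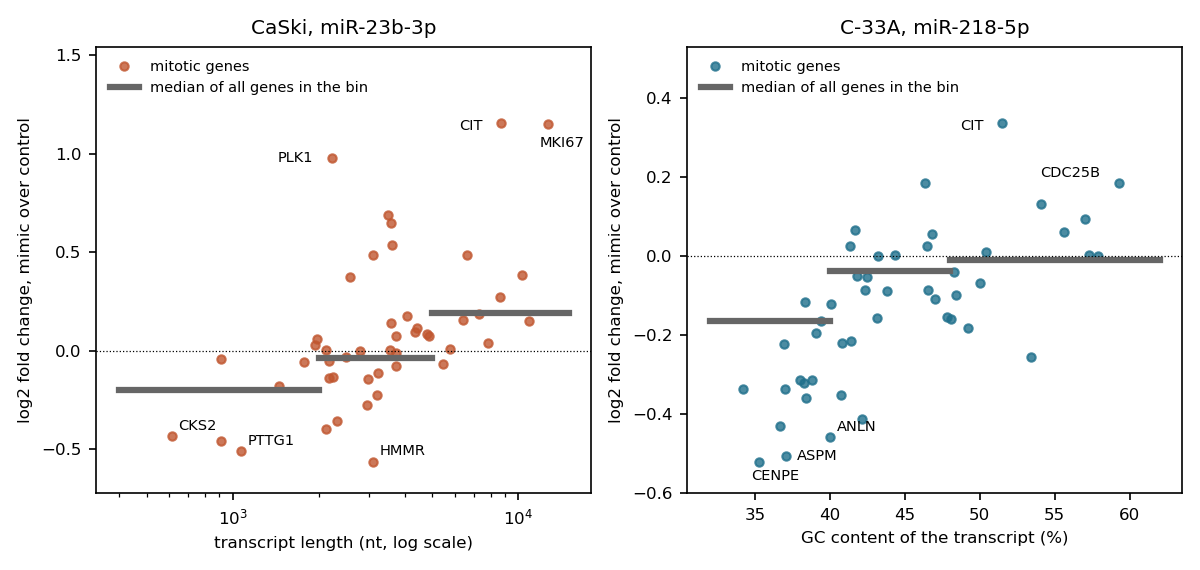
Left, CaSki log2 fold changes with miR-23b-3p against transcript length (nt, log axis), and right, C-33A log2 fold changes with miR-218-5p against GC content (percent), 1 point per member. Grey bars are the medians of all measured genes under 2000, 2000 to 5000 and over 5000 nt, and under 40, 40 to 48 and over 48% GC. Long members such as CIT (1.15) lie high on the left, and members low in GC such as CENPE (-0.52) lie low on the right. SPC25 is not drawn.

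The fold changes of members with and without TTTGAA in the promoter lay close together. In C-33A with miR-23b-3p the 23 members with it had a median of 0.17 and the 18 without it 0.16. In CaSki with miR-23b-3p the medians were 0.05 and 0.00, and in C-33A with miR-218-5p they were -0.12 and -0.16. For the CCAAT box the gap was wider in C-33A. There the 33 members with it had a median of 0.14 with miR-23b-3p and the 8 without it 0.25. With miR-218-5p in C-33A these medians were -0.16 and -0.06, and in CaSki with miR-23b-3p 0.02 and -0.01. Across the 6 comparisons KIF23, which bundles the central spindle, followed the members' median most closely, with a root mean square difference of 0.0278 on the log2 scale, before UBE2C (0.0383) and TOP2A (0.0408). CIT (0.685), MKI67 (0.601) and PLK1 (0.516) were the least like it.

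Lists of other genes of the pathway were read in the same tables. For scale, 10.4% of measured genes were called in CaSki with miR-23b-3p. With miR-124-3p 1.4% were called in CaSki and 0.754% in C-33A. Of 17 APC/C subunits and regulators, ANAPC11 fell by 0.52 in CaSki with miR-23b-3p in the authors' deposited table (adjusted p = 0.0176), and none was called elsewhere. Of 17 condensin and cohesin genes, the cohesin subunit SMC1A (0.64), the condensin core SMC2 (0.45) and the condensin II subunit NCAPG2 (0.36) rose in that authors' deposited table, while NCAPH2 fell by 0.45. Among 13 genes of DREAM, MuvB and MYB, MYBL1, a MYB family transcription factor, rose in CaSki by 0.73 with miR-124-3p (adjusted p = 0.0263) and by 0.68 with miR-23b-3p (adjusted p = 0.00458) in the authors' deposited tables. Of 10 brakes on CDK1, 7 were measured in C-33A and 9 in CaSki, and none was called.

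Among 22 other kinetochore genes, ZWINT and SPDL1, which help bring dynein to the kinetochore, fell in CaSki with miR-124-3p by 0.55 each (adjusted p = 0.0486 and 0.0438) in the authors' deposited table. PMF1, a MIS12 complex subunit, fell by 0.48 in CaSki with miR-23b-3p in the authors' deposited table (adjusted p = 0.0413). Of 30 other spindle and cytokinesis genes, DEPDC1 fell with miR-124-3p by 0.71 in C-33A (adjusted p = 0.0294) and by 0.62 in CaSki (adjusted p = 0.0164) in the authors' deposited tables. It was the only gene of these lists called in C-33A. With miR-23b-3p in C-33A the medians of the 6 lists lay between -0.04 for the CDK1 brakes and 0.14 for other spindle and cytokinesis genes, against 0.17 for the 48 members. Elsewhere some lists lay further from 0 than the members. With miR-124-3p the other kinetochore genes had medians of -0.19 in C-33A and -0.18 in CaSki, against -0.001 and -0.06 for measured members. In CaSki with miR-23b-3p the condensin and cohesin genes had 0.26, against 0.01 for measured members.

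Where a list had no call, its gene with the lowest p-value is named here. For C-33A under miR-124-3p these were ANAPC10 (-0.52), NCAPD2 (0.34), RBL1 (-0.50), the stress gene GADD45B (-0.67) and SPDL1 (-0.61) in the authors' deposited table, with adjusted p between 0.227 and 1. Under miR-23b-3p C-33A had the APC/C partner UBE2S (0.26), the cohesin subunit STAG2 (0.38), RBL2 (-0.30), the CDK1 inhibitory kinase PKMYT1 (0.37), CENPH (0.27) and DEPDC1 (-0.43) in the authors' deposited table. Under miR-218-5p C-33A had CDC27 (-0.34), SMC1A (0.25), LIN9 (-0.28), BTG2 (-0.41), CENPQ (-0.44) and DEPDC1 (-0.51, adjusted p = 0.624) in the authors' deposited table. The adjusted p was 1 for every other gene named for C-33A with these 2 mimics.

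For CaSki with miR-124-3p the authors' deposited table gave the APC/C inhibitor FBXO5 -0.35 (adjusted p = 0.719), SMC1A 0.44 (adjusted p = 0.306) and the CDK inhibitor CDKN1A 0.62 (adjusted p = 0.319). With miR-23b-3p it gave the checkpoint protein SFN -0.31 (adjusted p = 0.118) and the myosin MYH10 0.47 (adjusted p = 0.0716). With miR-218-5p, FBXO5 (-0.22), SMC1A (0.40), MYBL1 (-0.28), BTG2 (-0.40), CENPQ (-0.25) and MYH10 (0.32) each had an adjusted p of 1 in the authors' deposited table.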

How the data were processed

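The members and gene lists were chosen with earlier results of these data known. The submitters' processing notes name FastQC 0.73, featureCounts 2.0.3, STAR 2.7.10b, edgeR 3.36.0 and the build GRCh38 for the polyA RNA libraries of 23 samples. Per the file headers, each deposited table lists 61217 genes with a log2 fold change, a mean log2 CPM, the F score of the test, its p-value and that p-value after adjustment. The strand setting of the counting is not stated. Values per sample were not used here, depth is unknown, and no interval resting on it is printed. The deposited adjusted p equals a Benjamini-Hochberg adjustment over all listed genes.

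From these tables each SE came from dividing the log2 fold change by the normal quantile of its p-value. Recovered denominator degrees of freedom had a median of 183651 in C-33A with miR-124-3p, 244868 in the other C-33A comparisons and 31.52, 38.18 and 25.72 in CaSki, so p-values of the lines rest on different pooling. Differences between fold changes were tested two-sided with a normal test over genes whose average log2 CPM was at least 1 in both tables. A length and GC trend came from mgcv 1.9.3 in R 4.3.3. The difference test and the motif search were tested on simulated data. Values are given for members called anywhere, for the 4 lowest p-values in each direction, for members with a 3' UTR match, for the 5 longest and 5 shortest transcripts, for called genes of each list or, with none, its lowest p, and for the 3 members most like the median profile. Alternatives changed the threshold, the genes adjusted over, the centring, the degrees of freedom, the SE and the trend.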

Additional observations from a re-analysis of the deposited data

How the results depend on the processing

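No paired analysis was possible because the deposited tables hold no values per sample, and for the same reason leaving out each replicate and the fit with a replicate block were not run. Whether a single library carries a call was therefore not tested, nor does the unknown depth allow a detection limit. In CaSki with miR-23b-3p, an FDR of 0.01 left 3 members risen (CDC25B, PLK1, CIT) and 1 fallen (PTTG1). Subtracting the length and GC trend left 1 fallen (HMMR) there. PTTG1 (-0.38), CKS2 (-0.29) and SPC24 (-0.27) stayed below 0 and the risen ESPL1 (0.33) above 0, without passing. Adjustment restricted to an average log2 CPM of at least 1, or at least 4, gave 1 risen (CIT) and 1 fallen (CKS2) in CaSki with miR-124-3p, since fewer genes were tested. After the length and GC trend was subtracted, with adjustment not restricted in this way, neither passed there. For the miR-23b-3p difference between lines, an SE taken from the F score gave 1 member past the threshold (SPC24), and the cause was not tested. With the residual degrees of freedom plus 20, ESPL1 (adjusted p = 0.0519) and SPC24 (0.0723) were no longer called in CaSki with miR-23b-3p. That subtraction turned the sign of 0 of the 9 called values. Of all measured members it turned 0 of 48 with miR-23b-3p in C-33A and 14 of 49 in CaSki, 10 in each line with miR-124-3p, and with miR-218-5p 6 in C-33A and 7 in CaSki.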
